A study of Mus musculus with 8 samples.

Results

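Of 183194 regions of open chromatin found by ATAC-seq in mouse mammary tumor cells, 553 (0.302%) were called in BM1 and BM5, the 2 libraries of WT luminal cells, and had no peak in the other 6. These are called the WT luminal-only regions here. They were selected on the presence and absence of peaks, so their pattern over the libraries, and the scores of their peaks, are given as a description with no test. The 8 libraries came from cell lines derived from PyMT tumors (a breast tumor model driven by the polyoma middle T antigen) of strain FBV/N mice, either WT or Lats1-CKO, that is, depleted of Lats1. Each line had been separated by FACS into a luminal subpopulation, with EpCAM-high and CD49f-high cells, and a basal-like one, which the labels call basal and which was EpCAM-low and CD49f-high, and then briefly expanded in culture. WT cells gave BM1 and BM5 from the luminal and BM2 and BM6 from the basal-like subpopulation. From Lats1-CKO cells came BM3 and BM7, which were luminal, and the basal-like libraries BM4 and BM8. The libraries are called replicates in the study, but nothing in the labels says that they came from separate lines, animals or sorts. Both WT and Lats1-CKO lines carried the PyMT transgene and were grown from adherent tumor cells, so stroma left in a culture and cells that changed state after the sort would be part of a library.

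LATS1 is a kinase of the Hippo pathway, which phosphorylates YAP and TAZ and so keeps these coactivators away from the TEAD transcription factors. In mammary epithelium, luminal cells line the duct and carry the estrogen receptor in part of their number, whereas basal cells form the contractile outer layer. ATAC-seq uses the Tn5 transposase to cut accessible DNA, and a peak marks a promoter, an enhancer or another element that is free of nucleosomes in enough of the cells to be called.

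The libraries held 51497 to 99022 peaks, except for BM3, which held 14753 and stood apart. The study discarded 1 Lats1-CKO luminal replicate for quality when replicates were combined, and the text used here does not name it. The main differences of ratios between groups are given with and without BM3. Undivided differences are given with BM3 only, and it is stated where they rest on it. Of 12 luminal marker genes, 12 in BM1 and 11 in BM5 carried a peak at the promoter, that is, within 1 kb of a transcription start site (TSS), against 10 and 8 in BM2 and BM6, 9 and 11 in BM3 and BM7, and 4 and 6 in BM4 and BM8. Of 12 basal-like markers the counts were 7 and 7 in the WT luminal, 7 and 7 in the WT basal-like, 5 and 9 in the Lats1-CKO luminal and 7 and 6 in the Lats1-CKO basal-like libraries. Peaks at luminal markers were thus more frequent in WT luminal than in WT basal-like libraries, while those at basal-like markers were equally frequent in both. Fibroblast markers had 0 to 7 of 10, immune markers 0 to 5 of 12 and endothelial markers 0 to 5 of 10 such peaks, with 2 and 3, 2 and 2, and 5 and 3 in BM1 and BM5. None of these marker genes was the nearest gene of a WT luminal-only region, and their part in the results was not tested.

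Sequences are given first, because the results turn on a motif that many of them hold. All are from the plus strand of GRCm38 (mm10), in lower case, with capitals at every exact match, on either strand, to 1 of the 13 short motifs described further on. The first set holds 5 regions of high score in both libraries, chosen by the smaller of their percentiles in BM1 and BM5 among regions that overlap no UTR. The region nearest to Cpeb3, a repressor of translation, was chr19:37101389-37101530, that nearest to Brpf3, a scaffold of histone acetyltransferase complexes, is shown by its central bases chr17:28792900-28793199, and that of E330009J07Rik was chr6:40431348-40431613. The region upstream of 3100002H09Rik was chr4:124630159-124630377, and that in an intron of Mitf, which encodes the melanocyte-inducing transcription factor, was chr6:97975033-97975182.
Cpeb3: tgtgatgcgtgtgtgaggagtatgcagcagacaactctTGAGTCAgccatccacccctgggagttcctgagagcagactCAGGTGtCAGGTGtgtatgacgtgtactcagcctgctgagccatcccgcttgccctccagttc
Brpf3: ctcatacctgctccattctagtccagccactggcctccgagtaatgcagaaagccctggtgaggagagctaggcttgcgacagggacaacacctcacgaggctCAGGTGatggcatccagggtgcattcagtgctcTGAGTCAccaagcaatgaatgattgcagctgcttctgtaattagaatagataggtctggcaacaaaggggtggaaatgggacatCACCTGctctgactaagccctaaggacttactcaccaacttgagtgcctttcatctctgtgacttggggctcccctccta
E330009J07Rik: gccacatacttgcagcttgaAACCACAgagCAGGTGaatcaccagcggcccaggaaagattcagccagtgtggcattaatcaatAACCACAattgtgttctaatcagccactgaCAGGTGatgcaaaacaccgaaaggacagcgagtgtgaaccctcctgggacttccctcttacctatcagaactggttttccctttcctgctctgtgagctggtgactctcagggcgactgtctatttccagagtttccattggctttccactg
3100002H09Rik: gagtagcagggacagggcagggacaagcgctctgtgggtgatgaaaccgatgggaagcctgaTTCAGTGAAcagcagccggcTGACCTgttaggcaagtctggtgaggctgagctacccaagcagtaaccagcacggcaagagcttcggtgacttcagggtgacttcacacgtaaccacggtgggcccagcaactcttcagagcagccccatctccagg
Mitf: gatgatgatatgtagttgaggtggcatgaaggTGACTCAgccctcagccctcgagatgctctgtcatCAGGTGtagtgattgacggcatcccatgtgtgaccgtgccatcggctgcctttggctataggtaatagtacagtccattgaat
The capitals mark CAGGTG, or CACCTG on the other strand, 2 times in Cpeb3, Brpf3 and E330009J07Rik and 1 time in Mitf. TGACTCA, or TGAGTCA on the other strand, is marked in Cpeb3, Brpf3 and Mitf. The 3100002H09Rik region held neither and is marked at TTCAGTGAA and TGACCT.

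The second set holds 8 regions nearest to genes of fixed pathway lists, or to Ccdc6, which had more of the regions near it than any other gene. They were chr10:70060779-70061004 (Ccdc6), chr4:98474718-98474916 (Patj), chr5:91402312-91402507 (Btc), chr13:100551384-100551501 (Ocln), chr2:164101650-164101841 (Stk4), chr17:28351279-28351378 (Tead3), chr7:112744964-112745192 (Tead1) and chr10:4599756-4599876 (Esr1).
Ccdc6: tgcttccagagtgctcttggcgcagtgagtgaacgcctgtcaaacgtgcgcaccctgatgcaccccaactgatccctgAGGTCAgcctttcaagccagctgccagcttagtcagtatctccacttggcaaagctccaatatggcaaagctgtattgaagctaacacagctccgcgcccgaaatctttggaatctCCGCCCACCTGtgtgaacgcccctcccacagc
Patj: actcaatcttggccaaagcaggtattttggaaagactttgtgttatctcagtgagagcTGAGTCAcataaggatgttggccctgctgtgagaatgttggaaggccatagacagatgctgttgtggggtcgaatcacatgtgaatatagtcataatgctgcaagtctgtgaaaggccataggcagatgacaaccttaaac
Btc: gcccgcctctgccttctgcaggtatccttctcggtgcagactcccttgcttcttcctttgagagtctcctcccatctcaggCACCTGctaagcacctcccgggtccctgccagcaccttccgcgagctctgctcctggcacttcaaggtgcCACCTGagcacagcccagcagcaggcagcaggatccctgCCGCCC
Ocln: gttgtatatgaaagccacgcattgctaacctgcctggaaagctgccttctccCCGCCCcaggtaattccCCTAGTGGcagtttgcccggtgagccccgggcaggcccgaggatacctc
Stk4: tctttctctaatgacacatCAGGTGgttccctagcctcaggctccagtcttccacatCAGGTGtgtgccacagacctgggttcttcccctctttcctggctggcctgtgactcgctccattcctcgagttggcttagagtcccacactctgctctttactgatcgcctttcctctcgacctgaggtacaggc
Tead3: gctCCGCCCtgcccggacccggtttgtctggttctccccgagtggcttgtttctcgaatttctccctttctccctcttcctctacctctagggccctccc
Tead1: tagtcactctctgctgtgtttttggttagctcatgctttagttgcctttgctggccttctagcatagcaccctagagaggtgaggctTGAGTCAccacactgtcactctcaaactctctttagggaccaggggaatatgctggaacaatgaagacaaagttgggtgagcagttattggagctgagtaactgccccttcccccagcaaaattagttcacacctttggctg
Esr1: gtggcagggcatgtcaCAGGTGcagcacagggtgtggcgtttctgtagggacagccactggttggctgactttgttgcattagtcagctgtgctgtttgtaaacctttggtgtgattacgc
CAGGTG or its complement is marked in Ccdc6, Btc, Stk4 and Esr1, with 2 matches each in Btc and Stk4. In Ccdc6 it shares a base with a GC box. Patj and Tead1 are marked at the AP-1 motif, Ocln at a GC box and at the core of the CTCF motif, and Tead3 at a GC box. No TEAD motif is marked in any of the 13 sequences.

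In Lats1-CKO cells, the WT luminal regions as a whole fell into a wide range of patterns. Peaks of BM1 and BM5 met in 2141 regions where both WT basal-like libraries lacked one, and the WT luminal-only regions were 25.8% of these. The next most frequent pattern was a peak in BM4, BM7 and BM8, with 441 regions (20.6%), followed by BM7 alone with 318 (14.9%) and BM7 with BM8, with 314 (14.7%). BM3 had a peak in few of them, and leaving it out of the rule gave 555 regions in place of 553. How many regions had a peak in a given pair of WT libraries and nowhere else differed widely between pairs. BM1 and BM2 shared 1537 such regions, BM5 and BM2 692, BM1 and BM6 224 and BM5 and BM6 136, so that a luminal and a basal-like library shared more of them than BM1 and BM5 in 2 of 4 combinations. The 2 WT basal-like libraries shared 146 (0.0797% of all regions), and the 2589 regions of the 4 combinations of a luminal with a basal-like WT library (1.41%), called mixed WT-only regions below, serve with them for comparison.

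**Figure D1:**
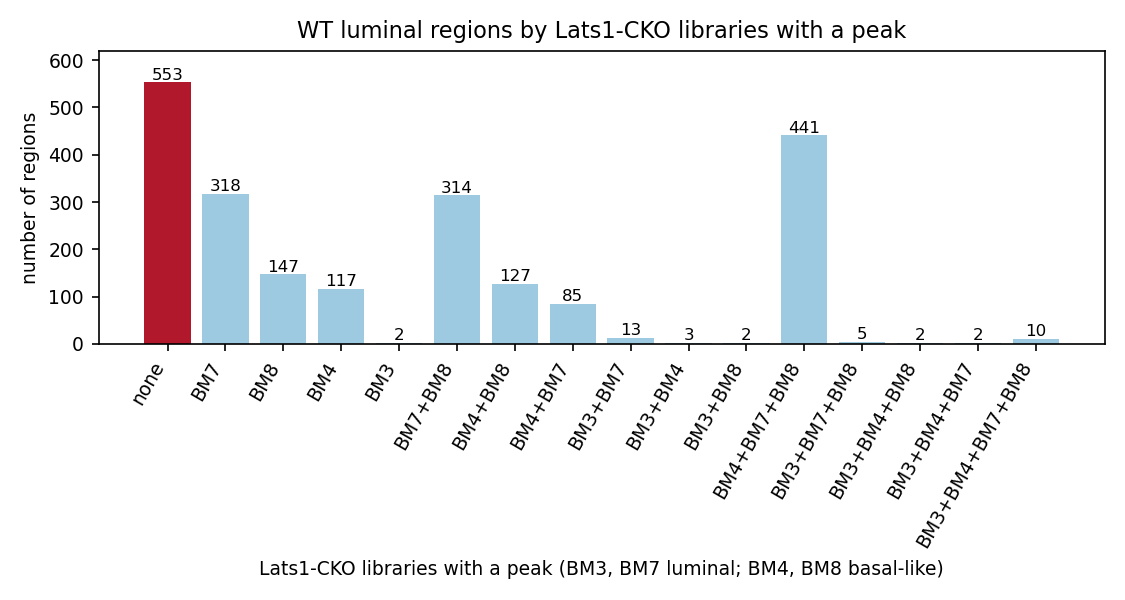
Number of WT luminal regions (called in BM1 and BM5 but not in BM2 or BM6, y axis) by which Lats1-CKO libraries also had a peak (x axis). The red bar is the 553 regions with none; the highest blue bar, with 441 regions, is that of BM4, BM7 and BM8 together.

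A region without a peak fell short of the caller's threshold, which does not show closed chromatin. A peak of another library lay within 100 bp of 28 of the regions (5.06%), within 500 bp of 103 (18.6%) and within 1 kb of 147 (26.6%), while 115 (20.8%) had no peak of another library within 10 kb. The region nearest to Cog6 (chr3:52685444-52685675) had peaks of BM2, BM4, BM6, BM7 and BM8 at 0.095 to 0.244 kb from its edges. By contrast, the region nearest to Eepd1 (chr9:25895180-25895323) was 112.2 kb or more from any peak of the other 6 libraries. Fewer cells with an open region and lower accessibility per cell cannot be told apart in bulk libraries.

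Just outside the rule lay regions with peaks in BM1, BM5 and 1 other library. There were 860 such regions with BM2, 53 with BM6, 2 with BM3, 318 with BM7, 117 with BM4 and 147 with BM8. The best-scoring examples lay nearest to Il10rb for BM2, at percentiles of 90.4 in BM1 and 87.0 in BM5, and to Pgs1 for BM7, at 78.1 and 90.4. Near Sdhaf3 the peak of BM8 had a percentile of 1.83 in that library, against 70.7 in BM1 and 62.4 in BM5, so a weak peak was enough to keep a region out. The examples for BM6, BM3 and BM4 lay nearest to Olfr297 (74.99 in BM1 and 79.4 in BM5), Skap1 (49.0 and 62.4) and Gabre (54.9 and 62.4).

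Most WT luminal-only regions had weak peaks. As the score of a peak depends on depth, it was used as a percentile among the peaks of its own library. The median percentile was 25.3 in BM1 (quartiles 9.33 and 38.8) and 28.5 in BM5 (18.8 and 48.2). In BM5, 120 of the 553 peaks had a score of 13, the lowest in the list. So did 9570 of all 57487 regions with a peak in BM5, and 250 of the 1588 WT luminal regions with a Lats1-CKO peak. For the 1588 WT luminal regions with a Lats1-CKO peak the medians were 29.0 and 36.1, and for all regions that BM1 and BM5 shared, 70.3 and 66.0. Only 16 of the 553 (2.89%) were above 50 in both libraries, against 106 of the 1588 (6.68%), and 402 were above it in neither. The WT luminal-only regions made up 31.1% of the WT luminal regions whose smaller percentile was at most 20, 23.1% of those above 20 up to 40, 15.6% of those above 40 up to 60 and 16.2% of those above 60.

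**Figure D2:**
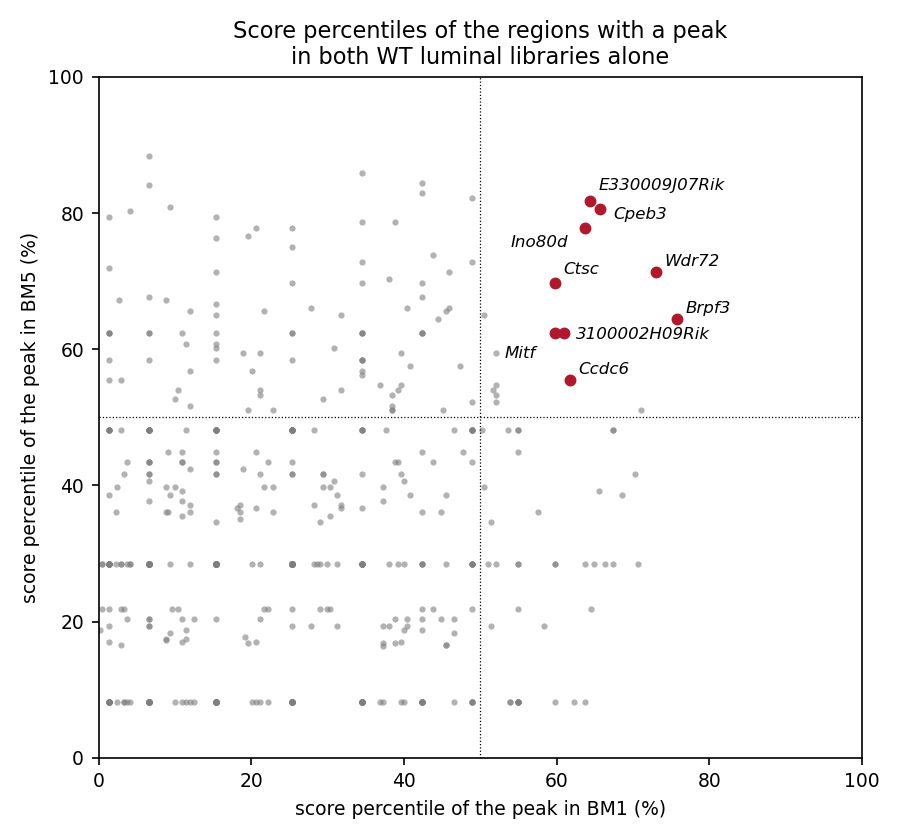
Score percentile of the peak in BM1 (x axis, %) against that in BM5 (y axis, %) for each of the 553 WT luminal-only regions (grey points), with the 9 regions of the highest smaller percentile in red and named by the nearest protein-coding gene. Dotted lines are at 50; 402 regions lie at or below both lines and 16 above both, and scores are whole numbers, so points fall into rows.

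The region with the highest smaller percentile of BM1 and BM5 was chr9:74110229-74110402, over the TSS of Wdr72. This gene encodes a WD repeat protein known for its role in tooth enamel. The percentile of the region was 73.0 in BM1 and 71.3 in BM5. The promoter of Wdr72 was without a peak in all other libraries, and a further WT luminal-only region had it as the nearest gene. Plekhg6, which encodes a guanine nucleotide exchange factor, likewise had promoter peaks in BM1 and BM5 alone, at 71.1 and 51.0, from the region chr6:125380489-125380615 in an exon, 0.178 kb from the TSS. Dyrk1b, a protein kinase gene, had promoter peaks in BM1 (69.0), BM5 (53.2) and BM2 (26.5) and in no other library, and the region chr7:28179264-28179499 over its TSS had percentiles of 52.0 in BM1 and 53.2 in BM5. For these 3 genes no Lats1-CKO library had a promoter peak.

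Several other WT luminal-only regions of high score belonged to genes with a promoter peak in every library. The regions near Brpf3 (percentiles 75.8 in BM1 and 64.5 in BM5, 7.89 kb upstream of the TSS) and in Mitf (59.8 and 62.4, 16.6 kb upstream of the nearest TSS) belonged to genes with a promoter peak in all 8 libraries, at percentiles of 81.2 to 95.4 for Brpf3 and 91.8 to 99.9 for Mitf. Ino80d, a subunit gene of the INO80 chromatin remodeller, had its region in an exon (63.8 and 77.8), 12.3 kb downstream of the nearest TSS, and promoter peaks of 61.3 to 96.8 in all libraries. The Cpeb3 region (65.7 and 80.7) lay in an intron, 72.6 kb downstream of the nearest protein-coding TSS, and Cpeb3 had a promoter peak in all libraries but BM3. E330009J07Rik had its region (64.4 and 81.8) over an internal TSS and promoter peaks in all 8 libraries, of 24.4 in BM3 and of 81.8 to 97.1 in the others. Ctsc, which encodes a lysosomal protease, had its region (59.8 and 69.8) 6.23 kb upstream, and promoter peaks in 6 libraries, none in BM3 and BM4. For 3100002H09Rik, Lelp1 and Ctla4 no library had a promoter peak.

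Within 1 kb of a TSS, further regions of high score belonged to Csnk1e (51.7 and 54.0), which encodes casein kinase 1 epsilon, and to Bst1 (53.6 and 48.2), an ectoenzyme gene. Those of Btc (45.9 and 71.3), Ablim1 (45.5 and 65.6), an actin-binding protein gene, and Ocln (45.2 and 51.0) were also among the 10 highest, as were those of Wdr72, E330009J07Rik, Dyrk1b and Plekhg6. Csnk1e, Bst1, Btc, Ablim1, Ocln and E330009J07Rik each had a promoter peak in at least 1 Lats1-CKO library. Other regions among the 20 of highest smaller percentile were nearest to Snx24, Lelp1, Cog6, Sulf1, Ptpre, Eepd1 and Ctla4, with smaller percentiles of 48.2 to 52.0.

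Genes of the Hippo pathway near WT luminal-only regions were Stk4, Taok3 and Tead3, 3 of the 20 in the list. Regions nearest to a gene of this list were 0.542% of the WT luminal-only and 0.185% of all regions. The mixed WT-only regions also reached 3 genes of it. Stk4 encodes MST1, the kinase upstream of LATS1. Its region (34.5 in BM1, 28.5 in BM5) lay in an intron, 1.93 kb downstream of the nearest TSS, which was internal to the gene. Taok3 encodes a kinase that acts on MST kinases, and its region had percentiles of 15.4 and 8.20. The Tead3 region was 0.462 kb upstream of the TSS, at 25.3 and 19.3. Tead1, counted in the list of YAP and TAZ targets, had 2 WT luminal-only regions in its introns, at 15.4 and 65.1 and at 53.9 and 8.20. That list took 0.362% of the WT luminal-only and 0.21% of all regions. Promoter peaks of Stk4, Taok3 and Tead1 were present in all 8 libraries, and that of Tead3 in all but BM3.

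Cell junction and polarity genes accounted for 4 of 20, Patj, Ocln, Dsp and Dsc2. Regions nearest to a gene of this list were 0.723% of the WT luminal-only and 0.169% of all regions. The mixed WT-only regions reached 6 genes of it. Patj encodes a scaffold of tight junctions, and its intronic region had the highest smaller percentile of the 4, at 67.5 in BM1 and 48.2 in BM5. Ocln encodes occludin, a membrane protein of tight junctions, and its promoter peaks were at 57.4 in BM1, 87.8 in BM5, 45.0 in BM2, 37.5 in BM6 and 71.3 in BM7, with none in BM3, BM4 and BM8. The promoter of Ocln thus had a peak in neither Lats1-CKO basal-like library. Those of Patj (32.7 in BM4, 63.2 in BM8) and Dsp (10.3 and 32.3) had one in both. Dsp and Dsc2 encode the desmosomal proteins desmoplakin and desmocollin 2, with regions at 10.9 and 43.5 and at 37.3 and 19.3. The Dsc2 region lay over the TSS, and promoter peaks were called in BM1, BM5, BM6, BM7 and BM8.

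Esr1, which encodes the estrogen receptor alpha, was the only one of 18 hormone-sensing luminal genes near a WT luminal-only region. It had 2, upstream (chr10:4599756-4599876) and in an intron (chr10:4782256-4782373). The upstream region was 11.7 kb from the TSS at the start of the gene. The intronic one was 69.6 kb downstream of its nearest TSS, which was internal to the gene. The list took 0.362% of the WT luminal-only and 0.118% of all regions, and the mixed WT-only regions reached 3 of its genes. The percentiles were 15.4 in BM1 and 58.4 in BM5 for the upstream region and 15.4 and 28.5 for the intronic one. The promoter of Esr1 had peaks in both WT luminal libraries (15.4 and 82.7), in BM2 (29.3), BM7 (32.7), BM4 (69.5) and BM8 (44.0). Btc, which encodes betacellulin, a ligand of the EGF receptor, was the only one of 20 receptor tyrosine kinases and ligands. Its region lay in an intron, with peaks of the other 6 libraries at 0.258 to 0.479 kb and promoter peaks in all 8. That list took 0.181% of the WT luminal-only and 0.237% of all regions.

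No gene of the luminal epithelial, luminal progenitor and alveolar, basal-like and myoepithelial, mesenchymal and fibroblast, immune, endothelial or estrogen response list was the nearest protein-coding gene within 100 kb. Over the 12 lists, with 207 genes, 12 of the 553 regions (2.17%) were nearest to 10 genes. For the mixed WT-only regions the share was 1.47% and for all regions 1.70%. The shares of single lists rest on 4 regions or fewer and were not tested.

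**Figure D3:**
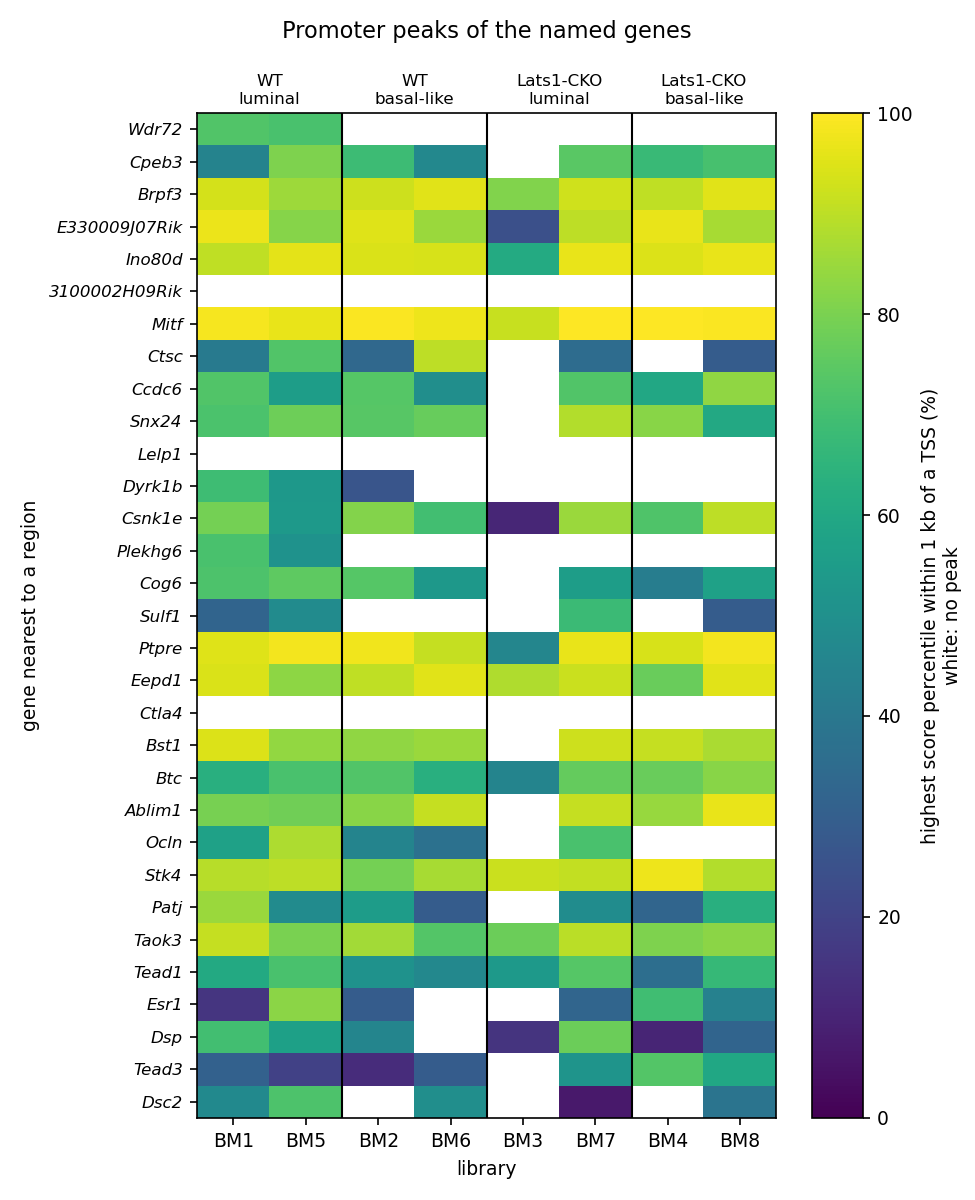
Highest score percentile (colour, %) of a peak within 1 kb of any TSS of each named gene (rows) in the 8 libraries (columns, grouped by genotype and subpopulation); white means no peak. Wdr72 and Plekhg6 have colour in BM1 and BM5 alone, whereas Mitf, Brpf3, Ino80d and Stk4 have it in every library.

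Of the 553 regions, 84 (15.2%, 95% Wilson interval 12.4 to 18.4, which covers sampling of regions only) lay within 1 kb of a TSS, against 19.0% of all regions, 17.4% of the WT luminal regions with a Lats1-CKO peak, 15.3% of the mixed WT-only and 19.2% of the WT basal-like-only regions. This order turned with the stringency of the peaks: among peaks above the median score of each library, 27.5% of the regions chosen by the same rule lay there, against 25.6% of all regions, while with the 10000 peaks of highest score kept per library it was 23.4% against 39.1%. Exons held 10.5%, introns 45.2% and intergenic sequence 44.3% of them, against 10.1%, 48.7% and 41.2% of all regions. The median distance to the nearest protein-coding TSS was 17.7 kb, and over all regions 17.1 kb. Their median width was 137 bp (quartiles 109 and 175) against 153 bp (103 and 241) over all. It was 138 bp in the WT basal-like-only, 149 bp in the mixed WT-only and 175 bp in the WT luminal regions with a Lats1-CKO peak. No repeat sequence was found in 55.5% of them and 48.8% of all regions. In these 3 other sets, in the same order, the share was 48.6%, 54.8% and 51.7%.

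They were also spread over the genome. Nearest protein-coding genes within 100 kb numbered 423 for 436 regions, and 411 of these genes had 1 region. Ccdc6, known as a fusion partner of RET, was the only gene with 3, all 29.7 to 36.9 kb upstream of its TSS. The percentiles at Ccdc6 were 61.8 and 55.5, 8.87 and 67.3, and 25.3 and 28.5 in BM1 and BM5. The first and second of these were 531 bp apart, the smallest gap of all. Genes with 2 regions were Ablim1, Atp8b1, D130043K22Rik, Esr1, Exoc6b, Fbln2, Kmt2e, Lingo2, Tead1, Thsd4 and Wdr72. Chromosome 2 had the most, 53 regions (9.58%, against 7.75% of all regions), followed by chromosomes 1 and 10 with 40 and 39. Relative to all regions, chromosome 14 had the highest share (5.97% against 4.01%, a ratio of 1.49) and chromosome 17 the lowest (2.53% against 3.89%, 0.65). The median gap between neighbours was 2868 kb.

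Of the 13 motifs, the hexamer CAGGTG showed the widest gap in percentage points between the WT luminal-only and all regions. This is the E-box bound by the zinc-finger repressors of the SNAI and ZEB families, which act on epithelial genes, and by some basic helix-loop-helix factors. It was present on either strand within 400 bp centred on the region in 285 of 553 (51.5%, Wilson interval 47.4 to 55.7). The share was 35.3% in the WT luminal regions with a Lats1-CKO peak, 38.2% in the mixed WT-only, 26.0% in the WT basal-like-only and 24.9% in all regions. Within the central 200 bp it was 42.1% against 13.6% of all regions, since the matches gathered at the centre. In the 40 bp on either side of the centre there were 15.0 and 13.7 matches per 100 regions, against 3.32 and 3.44 over all regions. There were 413 matches in the 553 regions, 2 in 12.5% of them (3.67% of all regions) and 3 or more in 3.98% (0.663% of all regions), with 10 in 1 region.

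The other letters counted in the place of the central GG gave no such difference, and not every combination was counted. CAGCTG was found in 21.9% of the WT luminal-only and 22.6% of all regions, CACGTG in 6.51% and 6.44%, CATCTG in 27.5% and 29.0%, CATATG in 8.86% and 7.65%, and CAAGTG in 21.7% and 22.9%. These hexamers were chosen after the share of CAGGTG had been seen. The share of CAGGTG was 54.8% of the 84 regions within 1 kb of a TSS (27.7% of all such regions) and 51.0% of the 469 farther away (24.3%). It was 48.3% at a smaller percentile of at most 20, 54.9% above 20 up to 40 and 60.4% above 40. For WT luminal regions with a Lats1-CKO peak these shares were 34.1%, 34.0% and 40.7%.

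Among regions with a peak in exactly 2 libraries, the share of CAGGTG was higher for BM1 with BM5 than for any other of the 23 pairs, of 28, that had at least 20 regions. BM1 with BM7, a WT and a Lats1-CKO luminal library, followed with 44.6% of 1796 regions, and BM5 with BM7 had 38.5% of 494. The Lats1-CKO luminal libraries BM3 and BM7 had 27.6% of only 29 regions. The pairs of basal-like libraries ran from 15.9% of 3628 (BM4 with BM8) to 26.0% of 146 (BM2 with BM6). Pairs of a luminal and a basal-like library lay between 8.33% of 24 regions (BM3 with BM4) and 39.9% of 1537 (BM1 with BM2). The pairs share libraries and were not tested. Among regions found in 1 library alone, BM1 had 38.7%, BM7 31.9%, BM2 30.3%, BM3 29.8%, BM5 26.7%, BM6 24.8%, BM8 17.4% and BM4 17.3%.

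**Figure D4:**
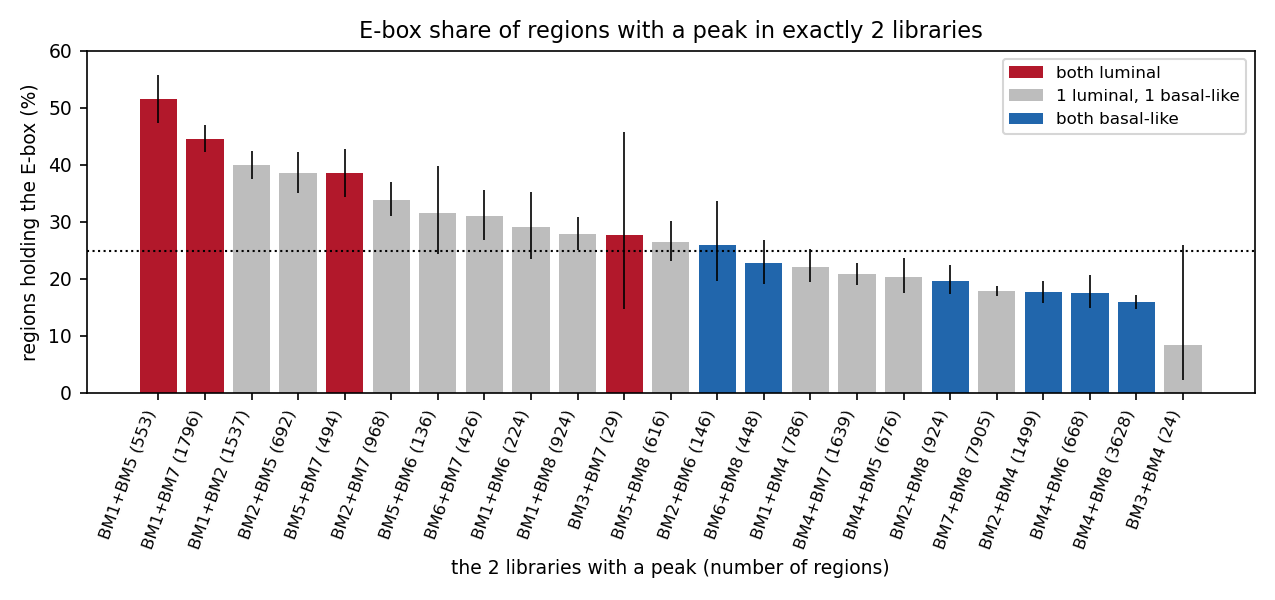
Percent of regions holding CAGGTG within 400 bp (y axis) for regions with a peak in exactly 2 libraries (x axis, number of regions in parentheses), with 95% Wilson intervals as bars and 24.9%, the share of all regions, as a dotted line. BM1 with BM5 is highest at 51.5%; all pairs of basal-like libraries are at or below 26.0%.

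AP-1 motifs, TGACTCA, the site of JUN and FOS proteins, were in 205 of the WT luminal-only regions (37.1%), against 25.3% of all. This was not particular to them, since the mixed WT-only regions had 41.0%. CAGGTG and TGACTCA occurred together in 108 regions (19.5%), and 171 (30.9%) had neither. In all regions these shares were 6.41% and 56.2%. The element AGGTCA, which nuclear receptors bind, was in 30.4% (26.7 to 34.3) against 24.0% of all regions and 23.9% of the mixed WT-only ones.

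The TEAD motif GGAATGT was in 31 of the 553 regions (5.61%, 3.98 to 7.85), against 7.68% of WT luminal regions with a Lats1-CKO peak, 8.57% of the mixed WT-only and 8.53% of all regions. The palindrome AACCGGTT of GRHL factors was in 3 regions (0.542%), and in 0.169% of all. For the core CCACNAGG of CTCF the share was 7.96%, close to the 8.57% of all regions, while WT luminal regions with a Lats1-CKO peak had 13.2%. Of the remaining motifs, ETS (AGGAAGT) was in 12.8% against 11.9% of all regions, FOXA (TGTTTAC) in 5.79% against 5.97%, GATA factors (AGATAAG) in 4.34% against 3.45% and SOX (ACAATGG) in 4.52% against 5.99%. RUNX (TGTGGTT) was in 10.3% against 12.4% and the GC box (GGGCGG) in 11.9% against 14.8%. The STAT motif TTCNNNGAA was in 61 of the 553 (Wilson interval 8.68 to 13.9%), with 12.5% of all regions holding it. Motifs were matched letter for letter on both strands and may overlap each other. A match describes the sequence and does not show that a factor was bound.

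**Figure D5:**
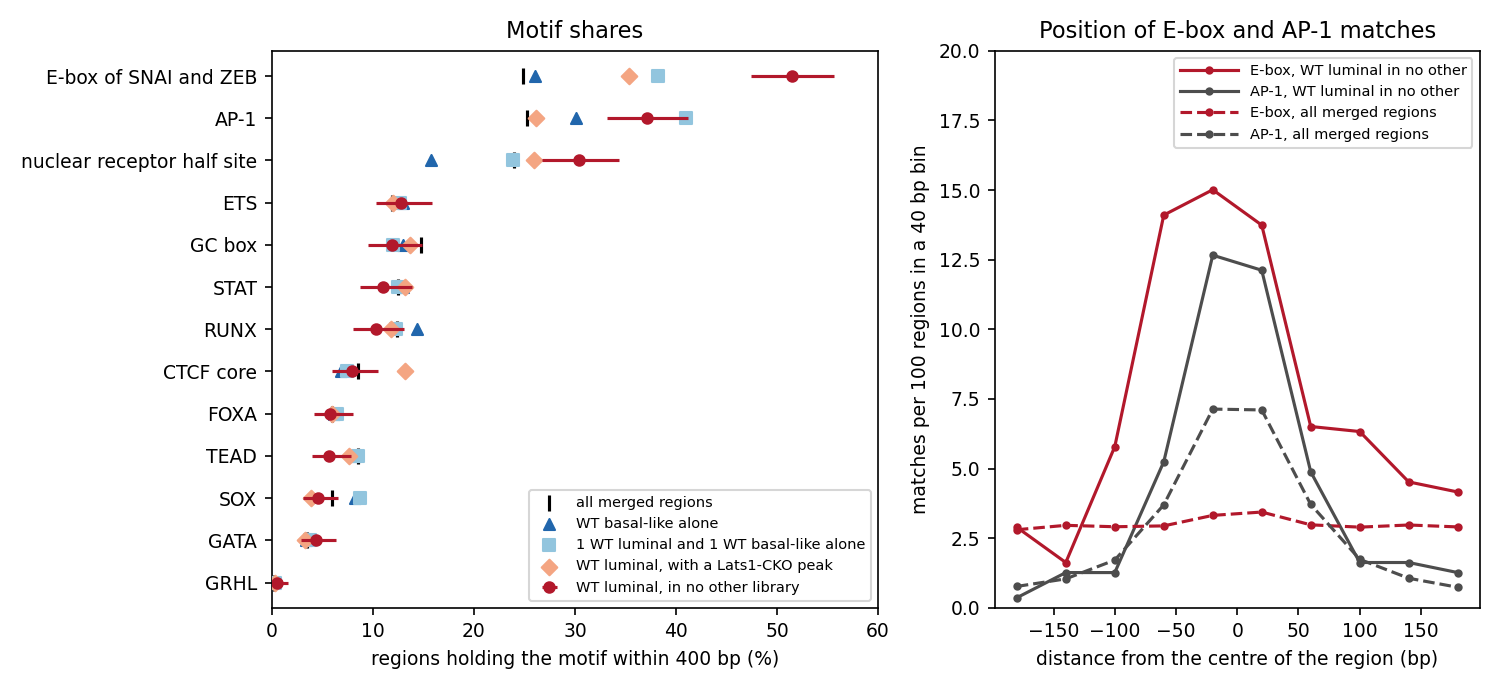
Left, percent of regions holding each motif within 400 bp of sequence (x axis) for the WT luminal-only regions (red, with 95% Wilson intervals) and 4 other sets of regions. Right, matches per 100 regions in bins of 40 bp (y axis) by distance from the centre of the region (x axis, bp), for CAGGTG (red) and AP-1 (grey), solid for the WT luminal-only and dashed for all regions; the solid red line reaches 15.0 near the centre and the dashed one stays near 3.

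Peaks around the WT luminal-only regions were not used by the rule, so they could be compared between WT basal-like and Lats1-CKO libraries, none of which had a peak in the regions. A peak within 10 kb was found for 290 and 252 of the 553 regions in BM2 and BM6 (52.4% and 45.6%), and for 341, 310 and 346 in BM7, BM4 and BM8 (61.7%, 56.1% and 62.6%). BM3 had 104 (18.8%). In BM1 and BM5 it was 57.0% and 46.3%. With BM3, the mean share was 0.77 percentage points higher in the Lats1-CKO than in the WT basal-like libraries (p = 0.8, two-sided exact permutation test over libraries). The groups overlapped through BM3 alone. BM7, BM4 and BM8 were each above BM2 and BM6, so the size of this difference rests on BM3. Divided by the same share of the mixed WT-only regions, to allow for the number of peaks in a library, the ratios were 0.82 and 0.93 in BM2 and BM6. They were 0.936 in BM3, 0.968 in BM7, 0.945 in BM4 and 0.996 in BM8. The mean ratio was 0.961 ± 0.027 (SD, n = 4) in the Lats1-CKO and 0.875 (n = 2) in the WT basal-like libraries, a difference of 0.086 with p = 0.133 in a two-sided exact permutation test over libraries, which is the smallest p that 2 against 4 allow. Mixed WT-only regions were chosen for a peak in BM2 or BM6 and for none in Lats1-CKO libraries, so the divisor depends on the groups compared and no direction is drawn from these ratios. Among peaks above the median score the difference of the ratios was 0.090, with p = 0.533 in the exact permutation test. Without BM3 the difference was 0.094 (p = 0.2 in the exact permutation test, again the smallest possible). Without BM2 it was 0.031 and without BM6 0.141, so its size rested on which WT basal-like library was used.

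Promoters of the genes beside these regions were compared in the same way. Of 356 protein-coding genes that were nearest to a WT luminal-only region but had none within 1 kb of a TSS, 270 (75.8%) and 257 (72.2%) had a promoter peak in BM2 and BM6. In Lats1-CKO basal-like cells it was 269 (75.6%, BM4) and 278 (78.1%, BM8), and in Lats1-CKO luminal cells 166 (46.6%, BM3) and 285 (80.1%, BM7). BM1 and BM5 themselves had 279 and 244 (78.4% and 68.5%). Over all 21755 protein-coding genes the share was 34.6% in BM3 and 50.9% to 59.3% in the others. The ratio of the shares was 1.36 and 1.37 in BM2 and BM6 and 1.32 to 1.35 in the Lats1-CKO libraries, a difference of -0.026 (p = 0.133, two-sided exact permutation test, the smallest that 2 against 4 allow). Without BM3 it was -0.028 (p = 0.2, exact permutation test, the smallest that 2 against 3 allow). Undivided and with BM3, the difference of the mean shares, Lats1-CKO minus WT basal-like, was -3.93 percentage points, with p = 0.933 in the exact permutation test. Its negative sign rests on BM3. BM7 and BM8 were above both WT basal-like libraries, and BM4 lay between these. The ratio of the shares was 1.36 in BM1 and 1.35 in BM5.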

How the data were processed

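ATAC-seq libraries were sequenced in pairs of reads from WT and Lats1-CKO luminal and basal-like cells, 2 libraries in each of 4 groups. Per the submitters' processing notes and the study's methods, adapters were trimmed with cutadapt, reads were aligned uniquely to mm10 with Bowtie 1.0.0, duplicates were removed with Picard 2.3.0, and mitochondrial reads and long fragments were excluded. Peaks were called in each library separately with MACS2 (2.1.1.20160309 in the notes; the methods give another version), and those on the ENCODE blacklist were dropped. The deposited lists give for each peak a position and a score, at least 13 in every library, which was taken to be that of MACS2 from its values and was not normalized between libraries. Since they hold no read counts, depth is unknown, intervals for counting error are not given, and the study's own DiffBind analysis was not repeated.

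Peaks of all libraries were merged at an overlap of 1 bp or more. The regions and gene lists were chosen with earlier results of these data known. 1 gene that the rule for named genes takes is not reported here. The rule took the 20 regions of highest smaller percentile in BM1 and BM5, the 10 highest within 1 kb of a TSS, the genes of 12 fixed lists that were nearest (within 100 kb, protein-coding) to a region, genes nearest to 3 or more, and the best region with 1 further library for each of the other 6. TSSs were those of GENCODE M21, sequence that of GRCm38.p6, and motif windows 400 bp; sequences of chromosome 18 and of UTRs are not printed. A percentile is the average rank of a score within its library. The merging and selection were tested on simulated peak lists. Tests were two-sided exact permutation tests over libraries, with n = 2 against 4. Computation used pandas 2.3.3, matplotlib 3.10.9, scipy 1.17.1 and numpy 2.4.6 under Python 3.11.15. Alternatives were each library left out, peaks above the median score, the 10000 highest-scoring peaks, equal numbers of peaks (51497, BM3 kept whole), merging at 100 or 500 bp, autosomes only, and other windows and distances.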

Additional observations from a re-analysis of the deposited data

Results flagged for a closer look

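The Lats1-CKO luminal library BM3 stood apart from the other 3 Lats1-CKO libraries in 3 values, by the ratio of its gap to the range of the 4 libraries. It had 14753 peaks. A peak lay within 10 kb of a WT luminal-only region in 18.81% of cases in BM3, and 46.63% of the genes nearest to these regions had a promoter peak there. Chance gives such a gap in about 1 in 20 groups. After division by the same shares over the mixed WT-only regions and over all genes, BM3 did not stand apart, with ratios of 0.936 and 1.35.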

How the results depend on the processing

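The selection depends on the peak lists. With each library left out in turn, the number of regions ran from 555 to 12623 (553 with all), the share within 1 kb of a TSS from 8.52% to 19.9%, the median smaller percentile from 8.20 to 25.3, the median width from 94 to 156 bp, the median GC content from 47.2% to 50.9%, the share on chromosome 2 from 7.30% to 9.75% and the share with CAGGTG from 27.8% to 53.6%; the extremes of number, width and CAGGTG share include leaving out BM1 (12623 regions, 27.8%) or BM5 (6577 regions, 39.9%), where a peak in 1 WT luminal library is enough. Without BM2 there were 1413 regions and without BM7 877. Among peaks above the median score of each library the values were 367 regions, 27.5%, 57.5, 197 bp and 52.5%, with CAGGTG in 57.0%, and 16 of these regions overlapped 1 of the 553. Among the 10000 highest-scoring peaks they were 128 regions, 23.4%, 87.4, 253.5 bp and 54.2%, with 4.69% on chromosome 2, and none overlapped; CAGGTG was in 48.4%. With equal numbers of peaks the share at a TSS was 22.6%, against 22.9% of all regions under that setting. The percentile was then 35.5, the width 162.5 bp and the GC content 51.0%. Merging at 500 bp gave 11.5% at a TSS (16.0% of all regions), a width of 151 bp and a GC content of 49.4%. Within 5 kb of a TSS lay 34.7%, and within 1 kb of a protein-coding one 12.1%. The ratio of the CAGGTG share to that of all regions was 3.09 in the central 200 bp and 2.76 in whole regions (2.07 in 400 bp), and in whole regions, which differ in width from all regions, it was 0.632 for FOXA, 0.833 for GATA (1.26 in 400 bp), 0.645 for RUNX and 0.64 for STAT. The settings for CAGGTG were chosen after its share had been seen. Of 156 values under alternatives 110 stayed within the interval or limit of the value reported. Where the interval of a motif's ratio held 1, the ratio could fall on the other side of it: in whole regions it was 0.884 for ETS (1.08 in 400 bp) and 1.06 for the CTCF core (0.928), and in the central 200 bp 1.15 for the CTCF core. With a library left out, the difference of the flanking-peak ratios ran from 0.031 to 0.141. That of the promoter-peak ratios ran from -0.033 to -0.018, and no p could reach 0.05. Both differences of ratios kept their sign. The divisor of the flanking-peak ratios depends on the groups compared, so no direction is drawn from its kept sign. The sign of the undivided promoter-peak difference rests on BM3. No paired analysis was possible because the labels give the libraries no replicate numbers. Except where a setting's own construction shows it, the cause of these shifts was not tested.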
